A study of Homo sapiens with 12 samples.

Results

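Osmolytes are small solutes that cells gather without harm to their proteins, and 3 genes of their handling were followed here: SLC5A3, the sodium-coupled transporter of myo-inositol (also called SMIT1), SLC6A6, the sodium- and chloride-coupled transporter of taurine (also called TauT), and NFAT5, the tonicity-responsive transcription factor that is known to act on both transporter genes. They were taken by symbol from the tables of read counts, in which they are 3 of 55242 genes. The RNA came from Hs 578T, a triple-negative breast cancer line of mesenchymal character, into which lentiviral vectors had brought either GFP, the control, or full-length NRF2. NRF2, encoded by NFE2L2, is the transcription factor of the antioxidant response. GFP cells and NRF2 cells were each kept for 8 h in medium with Cyss (cystine, added at 0.8 mM) or without Cyss, which gave 4 groups of 3 libraries. All 4 groups were transduced cells in a medium of the same base, with serum, methionine and glutamine. The sources give neither the number of integrated copies nor a clonal selection, and they do not say that the 3 replicates of a group were separate cultures, so the p-values measure the spread between these libraries.

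Cells in a medium of higher tonicity lose water and then replace inorganic ions with organic osmolytes such as myo-inositol, taurine, betaine and sorbitol. NFAT5 is known to raise the genes for their uptake or synthesis, and in swollen cells the volume-regulated anion channel built of LRRC8 proteins lets taurine and other osmolytes out. Taurine is itself made from cysteine, the amino acid that cells obtain by reducing cystine, and NRF2 is known for genes of glutathione synthesis and of cystine import. The comparisons ask what loss of Cyss did to the mRNA levels of the 3 genes, and whether exogenous NRF2 changed those levels or the response. Tonicity, cell volume, osmolytes and protein were not measured in these libraries.

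Each library held between 27250993 and 44596870 reads on genes (median 32857536). The levels given below are CPM, read counts relative to library size after scaling over all 12 libraries by the TMM method, and values are mean ± SD over n = 3 libraries. NFE2L2 was at 109 to 139 CPM in the 6 GFP libraries and at 196 to 250 CPM in the 6 NRF2 libraries, so the levels followed the labels in every library. The label calls the line epithelial. Of the epithelial markers, CDH1, EPCAM, CLDN3, CLDN7 and KRT19 stayed at or under 0.411 CPM in every library, while the keratins KRT18 and KRT8 were at 23.0 to 43.8 and 4.50 to 6.95 CPM. The mesenchymal marker VIM was at 4246 CPM or more and FN1 at 23381 CPM or more. Between 5.82 and 7.84% of the reads of a library lay outside annotated genes. NRF2 without Cyss replicate 1 stood apart at 7.84%, against 6.30 and 6.25% in the other libraries of its group. Results of the 3 genes that rest on it are given with and without it, and those of single listed genes are not. In every group replicate 1 had the highest such share.

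SLC5A3 has an unusual gene structure. In GENCODE 44 on GRCh37 it lies on chromosome 21 from 35445878 to 35478559 on the plus strand, with 2 merged exons of 11566 bases in all, and it starts inside MRPS6, which runs from 35445524 to 35515334 on the same strand and encodes a protein of the small subunit of the mitochondrial ribosome. Of the exon bases of SLC5A3, 265 are shared with MRPS6, among them the whole first exon. Where the annotation used for counting has the same exons, reads that lie wholly on shared bases could not be given to a single gene. The protein is encoded within the second exon, and 18.6% of the exon bases are coding. RefSeq, unlike GENCODE 44, gives both genes the same start, so the stretch before that start is shown as an element that the transporter gene and its neighbour have in common. On GRCh38.p14, a later build than that of the counts, these 250 bases are chr21:34073328-34073577, read on the plus strand. Capitals mark GC boxes, GGGCGG on either strand, which the factor Sp1 is known to bind.
SLC5A3 and MRPS6: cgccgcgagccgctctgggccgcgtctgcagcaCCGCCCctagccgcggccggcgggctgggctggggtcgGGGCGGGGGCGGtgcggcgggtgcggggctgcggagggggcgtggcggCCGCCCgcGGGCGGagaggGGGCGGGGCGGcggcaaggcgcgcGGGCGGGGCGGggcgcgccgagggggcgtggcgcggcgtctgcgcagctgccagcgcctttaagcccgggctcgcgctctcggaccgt
G and C make up 84.8% of these bases, against a median of 58.0% over the promoters of the table. The GC box was found 9 times on the 2 strands, in 6 runs of capitals, and 45.0% of all 35116 promoters hold at least 1. In the same search of both strands, TGGAAA (the core that NFAT factors bind), TGACNNNGC (the core of the antioxidant response element) and TGATGNAA (an amino acid response element) were not found in this window. Of all promoters 20.7%, 13.3% and 3.62% hold these letters, in that order. These shares, and the 45.0% for the GC box, were counted over the full promoter sequences, which extend past the window shown. Over its full sequence SLC5A3 had the same counts as in the window. The RefSeq table held a promoter for 1 of the 3 genes, SLC5A3.

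Loss of Cyss lowered SLC5A3 mRNA in GFP cells, and in NRF2 cells its difference did not pass the test. In GFP cells with Cyss, SLC5A3 was at 163, 148 and 150 CPM in replicates 1 to 3, and without Cyss at 123, 113 and 126 CPM. All 3 deprived libraries lay below all 3 controls, a lack of overlap that 12.1% of the 17452 genes tested showed in this direction. The mean fell from 154 ± 8.21 to 121 ± 6.43 CPM, and the fitted log2FC was -0.35 (SE 0.0499, edgeR adjusted p = 0.00130). In total RNA pooled from many cells, fewer cells that express a gene and less of its RNA per cell cannot be told apart. Genes were called with the thresholds of the study's figure legends, which are 0.1 for the adjusted p and 0.32 for the size of the log2FC. The study's methods name an adjusted p under 0.05, and the study used DESeq2 where edgeR was used here. SLC5A3 was the 1 gene of the 3 that was called lower here, as were 0.533% of all genes tested, and 2.1% were called in either direction. The fall lay close to the fold threshold: without GFP with Cyss replicate 1 the log2FC was -0.30 and without GFP without Cyss replicate 2 it was -0.31, both with an adjusted p still under 0.1 and no longer called.

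**Figure D1:**
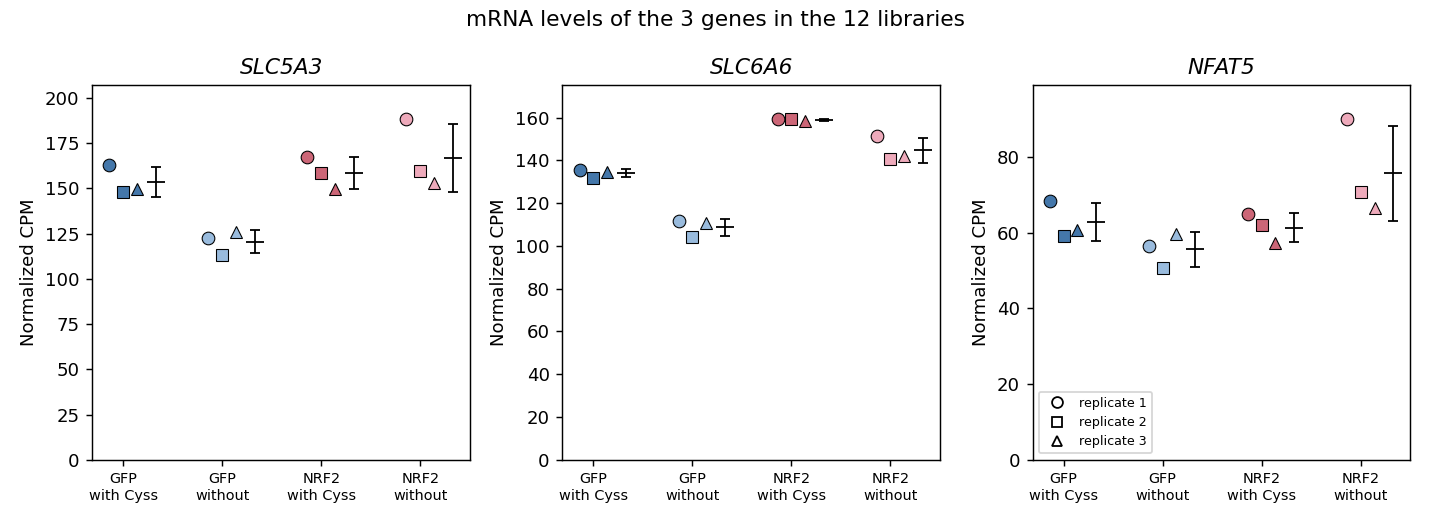
Levels of the 3 genes in TMM-normalized CPM (vertical axes, from 0) in the 4 groups (horizontal axes), with 1 symbol for each library, shaped by replicate number, and bars for the mean ± SD over n = 3. SLC5A3 is lowest in GFP cells without Cyss, the groups of SLC6A6 do not overlap, and NFAT5 is highest in NRF2 cells without Cyss, in replicate 1 above all.

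In NRF2 cells SLC5A3 was at 167, 158 and 150 CPM with Cyss and at 188, 160 and 153 CPM without Cyss. The groups overlapped, and the log2FC of 0.07 (SE 0.0693, edgeR adjusted p = 0.486) had a 95% interval from -0.07 to 0.22, which leaves out a fall of the size fitted in GFP cells. The small rise rested on a single library: without NRF2 without Cyss replicate 1, the log2FC was -0.02.

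The level of SLC5A3 with Cyss differed little between the cell populations. It was 158 ± 8.78 CPM in NRF2 cells and 154 ± 8.21 CPM in GFP cells, the libraries overlapped, and the log2FC of NRF2 against GFP cells was 0.04 (95% interval -0.05 to 0.14, edgeR adjusted p = 0.653). Without Cyss it was 167 ± 18.8 CPM in NRF2 cells against 121 ± 6.43 CPM in GFP cells. Every NRF2 library lay above every GFP library, as for 19.4% of the 17297 genes tested (18.9% lay the other way), and the log2FC was 0.46 (SE 0.0727, edgeR adjusted p = 0.00159). It was 0.37 without NRF2 without Cyss replicate 1 and still called. By the means, the order of the groups was NRF2 without Cyss, NRF2 with Cyss, GFP with Cyss and GFP without Cyss, and of these only the last did not overlap with its neighbour. SLC5A3 is among the genes that the study listed from these same libraries for their response to Cyss and NRF2, so these values are not independent evidence for that listing.

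MRPS6, which shares the start and the first exon with SLC5A3, was called in none of the comparisons. It was at 34.7 to 37.9 CPM in GFP cells with Cyss, 33.5 to 35.5 without, 35.6 to 36.5 in NRF2 cells with Cyss and 32.5 to 34.4 without. Its log2FC without against with Cyss was -0.08 in GFP cells (edgeR adjusted p = 0.427) and -0.10 in NRF2 cells (edgeR adjusted p = 0.181). In NRF2 cells, however, every deprived library of MRPS6 lay below every control, as for 18.5% of the genes tested. Within a library, the reads on SLC5A3 per read on MRPS6 do not depend on depth or on scaling. This ratio was 4.49, 4.27 and 3.95 in GFP cells with Cyss and 3.61, 3.39 and 3.55 without Cyss. It was 4.69, 4.34 and 4.18 in NRF2 cells with Cyss and 5.58, 4.91 and 4.45 without Cyss. The ratio was thus lower in all GFP libraries without Cyss than in any other library. On the log2 scale, the mean ratio differed by -0.27 in GFP cells without against with Cyss, and by 0.50 for NRF2 against GFP cells without Cyss, in both cases with p = 0.1 in a two-sided exact permutation test, the smallest p that 3 against 3 libraries allow. For NRF2 cells without against with Cyss it differed by 0.17 (exact permutation p = 0.2), and for NRF2 against GFP cells with Cyss by 0.06 (exact permutation p = 0.5).

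**Figure D2:**
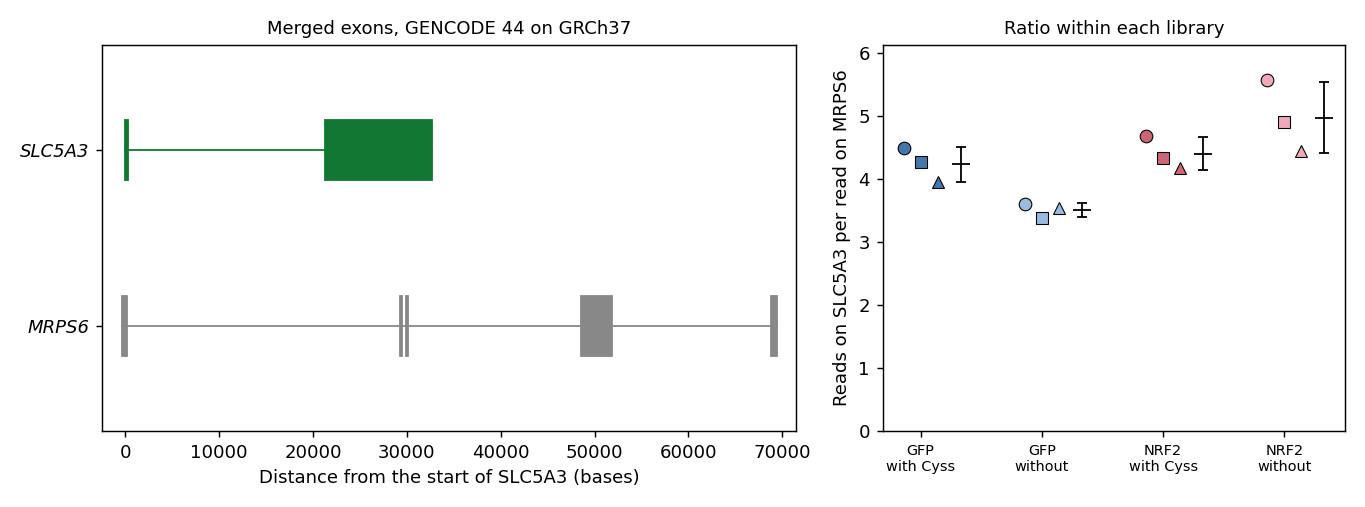
Left, merged exons (boxes) of SLC5A3 and MRPS6 in GENCODE 44 on GRCh37, to scale, against the distance in bases from the start of SLC5A3. Right, reads on SLC5A3 per read on MRPS6 in each library by group, from 0, with mean ± SD over n = 3; GFP cells without Cyss have the lowest ratios, 3.39 to 3.61.

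SLC6A6 kept a tighter spread and differed both between media and between NRF2 and GFP cells. It lies on chromosome 3 from 14444076 to 14530857 on the plus strand (GENCODE 44 on GRCh37), and 243 of its 8259 exon bases overlap GRIP2 on the other strand, which reads counted without regard to strand cannot separate. In GFP cells it was at 135, 132 and 135 CPM with Cyss and at 112, 104 and 111 CPM without Cyss. In NRF2 cells it was at 159, 159 and 159 CPM with Cyss and at 151, 141 and 142 CPM without Cyss. None of the 4 groups overlapped with another, in the order NRF2 with Cyss, NRF2 without Cyss, GFP with Cyss and GFP without Cyss. The share of all genes that separate the 4 groups in this way was not counted, so how common the pattern is cannot be said. The SD was between 0.229 and 3.98% of the mean, against 5.33 to 11.2% for SLC5A3.

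Without against with Cyss, the log2FC of SLC6A6 in GFP cells was -0.30 (SE 0.0397, edgeR adjusted p = 5.78e-04), at 109 ± 4.11 against 134 ± 1.83 CPM. The p passed the threshold and the fold did not, so it was not called. Of the 3 genes 2 had deprived libraries entirely below the controls, as did 12.1% of the 17452 genes tested. The 95% intervals of SLC5A3, -0.46 to -0.24, and of SLC6A6, -0.39 to -0.22, overlapped. In NRF2 cells SLC6A6 was lower without Cyss too, at a log2FC of -0.14 (SE 0.0455, edgeR adjusted p = 0.0429) that was below the fold threshold. It was the 1 gene of the 3 with all deprived libraries below the controls there, as were 18.5% of the 17266 genes tested. With DESeq2 the same difference was -0.13 (adjusted p = 0.0502), and over all alternatives the adjusted p ran from 0.00468 to 0.161.

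With Cyss present, SLC6A6 was at 159 ± 0.364 CPM in NRF2 cells against 134 ± 1.83 CPM in GFP cells, a log2FC of 0.25 (SE 0.0346, edgeR adjusted p = 6.08e-04) whose size stayed under the fold threshold. The lack of overlap in this direction was shared by 12.6% of the 17449 genes tested. None of the 3 genes was called in this comparison, in which 1.56% of the genes tested were called. Without Cyss the log2FC of NRF2 against GFP cells was 0.40 (SE 0.050, edgeR adjusted p = 4.57e-04), at 145 ± 5.75 against 109 ± 4.11 CPM, and it was called. It was 0.37 without NRF2 without Cyss replicate 1 and again called.

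NFAT5, the transcription factor, moved less evenly. It lies on chromosome 16 from 69598997 to 69738569 on the plus strand (GENCODE 44 on GRCh37), and 1649 of its 20275 exon bases are shared, mostly with a long non-coding RNA on the same strand. Its end is 2329 bases from the nearest end of NQO1, a gene on the minus strand that is a known target of NRF2. NFAT5 was at 68.4, 59.2 and 60.7 CPM in GFP cells with Cyss and at 56.6, 50.7 and 59.8 CPM without Cyss. These groups overlapped, and the log2FC of -0.17 (SE 0.0662, edgeR adjusted p = 0.184) did not pass the test. In NRF2 cells it was at 64.8, 62.0 and 57.3 CPM with Cyss and at 90.0, 70.6 and 66.5 CPM without Cyss. There, every deprived library lay above every control, as for 19.3% of the genes tested, with a log2FC of 0.30 (SE 0.0898, edgeR adjusted p = 0.0264) that was below the fold threshold.

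That difference was carried largely by 1 library. Replicate 1 of NRF2 cells without Cyss was at 90.0 CPM, with the highest share of reads outside genes, and without it the log2FC was 0.16 (edgeR adjusted p = 0.0417). Over all alternatives the adjusted p ran from 3.70e-06 to 0.134, and with DESeq2's Wald test it was 0.129. None of the 3 genes was called in NRF2 cells without against with Cyss, in which 11.9% of the genes tested were called.

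For NRF2 against GFP cells, the difference of NFAT5 with Cyss did not pass the test, at 61.3 ± 3.80 against 62.8 ± 4.95 CPM and a log2FC of -0.03 (95% interval -0.15 to 0.09, edgeR adjusted p = 0.789). Without Cyss it was at 75.7 ± 12.6 against 55.7 ± 4.62 CPM, with no overlap, as for 19.4% of the genes tested in this direction. The log2FC was 0.43 (SE 0.0984, edgeR adjusted p = 0.0105), and it was called. The call was lost by its size without NRF2 without Cyss replicate 1, at 0.29 (edgeR adjusted p = 0.0106). By the means the order was NRF2 without Cyss, GFP with Cyss, NRF2 with Cyss and GFP without Cyss, and each group overlapped with its neighbour. NQO1, although next to NFAT5, had other values: its log2FC was -0.42 in GFP cells and -0.58 in NRF2 cells without against with Cyss, and NRF2 against GFP cells gave 0.26 with Cyss and 0.09 without.

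Without Cyss, all 3 genes were therefore called higher in the NRF2 cells, as were 5.98% of all genes tested in that direction and 10.1% in either. The fitted log2FCs, 0.46 for SLC5A3, 0.40 for SLC6A6 and 0.43 for NFAT5, lay within each other's 95% intervals. The values behind them are described gene by gene, and differences between the 3 genes were not tested. For SLC5A3 the response to Cyss deprivation, a fall in GFP cells, was not seen in NRF2 cells. For SLC6A6 a higher level with Cyss came together with a smaller difference between media, both under the fold threshold, and for NFAT5 the deprived NRF2 libraries lay above their own controls, again under that threshold. The difference between the responses was tested as the interaction term of a fit to the 12 libraries, called below an adjusted p of 0.1. It was 0.42 for SLC5A3 (SE 0.0938, edgeR adjusted p = 0.00909), 0.17 for SLC6A6 (SE 0.0578, edgeR adjusted p = 0.0806) and 0.48 for NFAT5 (SE 0.127, edgeR adjusted p = 0.0265). All 3 passed in the higher direction, as did 8.97% of the 17674 genes tested, and 15.1% passed in either. The comparisons share groups: the same 3 libraries of GFP cells without Cyss enter 3 of the tests, and so do those of NRF2 cells without Cyss.

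**Figure D3:**
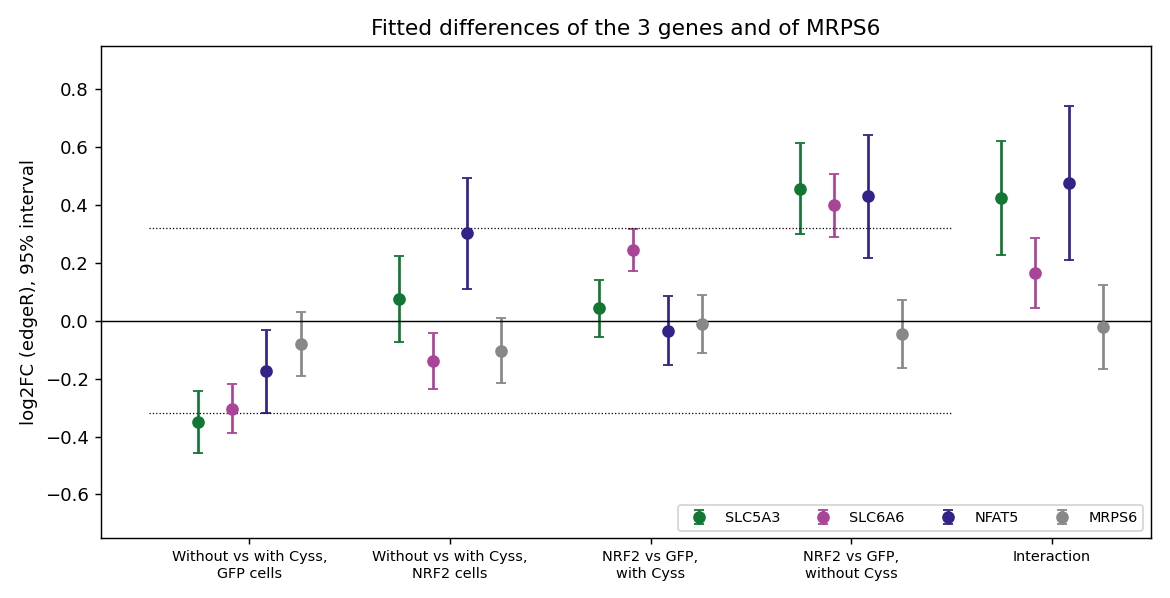
Fitted log2FC (points) with 95% intervals (bars) of SLC5A3, SLC6A6, NFAT5 and MRPS6 in the 4 comparisons and the interaction, with the fold threshold of 0.32 dotted. The 3 genes are at 0.40 to 0.46 in NRF2 against GFP cells without Cyss, and MRPS6 stays between -0.10 and -0.01 throughout.

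Without NRF2 without Cyss replicate 1, the interaction was 0.33 for SLC5A3 (edgeR adjusted p = 0.0102) and 0.33 for NFAT5 (edgeR adjusted p = 0.0393), and for SLC6A6 it was 0.13 and no longer passed (edgeR adjusted p = 0.139). The share of reads outside genes moved with the levels: in 3 of the 4 groups replicate 1 also had the highest level of each of the 3 genes, the exception being GFP cells without Cyss, where SLC5A3 and NFAT5 were highest in replicate 3. NRF2 libraries with Cyss were above all GFP libraries in that share, at 6.56 to 6.69% against 5.82 to 6.32%. With this share as a covariate, an alternative chosen after the data were seen, the log2FC of NRF2 against GFP cells without Cyss was 0.32 for SLC5A3 and 0.35 for SLC6A6, both still called. For NFAT5 it was 0.23 (edgeR adjusted p = 0.0326) and under the fold threshold. With Cyss, the covariate moved NFAT5 to -0.29 (edgeR adjusted p = 0.0381) and SLC5A3 to -0.14 (edgeR adjusted p = 0.269). The interaction under the covariate was 0.38 for SLC5A3, 0.15 for SLC6A6 and 0.41 for NFAT5, and passed for each.

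**Figure D4:**
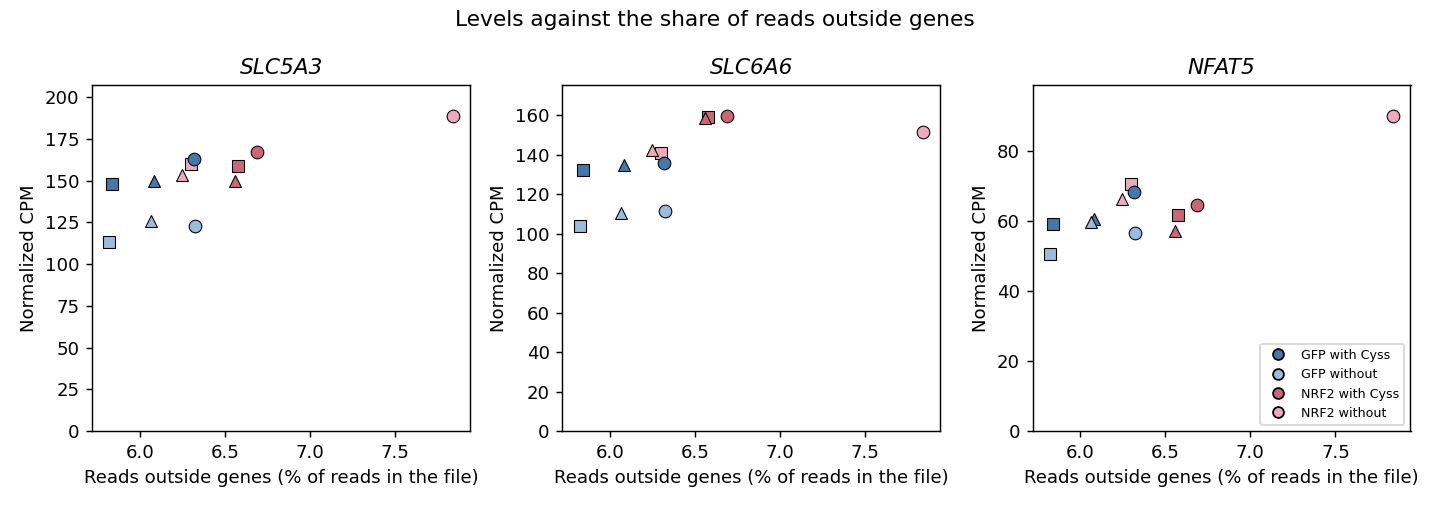
Level of each gene in TMM-normalized CPM (vertical axes, from 0) against the percent of a library's reads that lay outside genes (horizontal axes), with 1 symbol for each of the 12 libraries, coloured by group and shaped by replicate number (circle 1, square 2, triangle 3). The library at 7.84% has the highest SLC5A3 and NFAT5, whereas the highest SLC6A6 is in NRF2 cells with Cyss near 6.6%.

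Per kilobase of exon not shared with other genes, the 2 transporters were at like levels and NFAT5 was lower. In GFP cells with Cyss, SLC6A6 was at 16.7 ± 0.229, SLC5A3 at 13.6 ± 0.726 and NFAT5 at 3.37 ± 0.266 CPM per kilobase, with MRPS6 at 9.38 ± 0.422. The order SLC6A6, SLC5A3, MRPS6, NFAT5 held in each group, and the exon models behind it are not those used for counting. The 3 genes have many exon bases, merged over all annotated transcripts of a gene, which is not the length of a single mRNA. These exon bases lay at percentiles 89.4 for SLC5A3, 77.3 for SLC6A6 and 98.0 for NFAT5. The percentiles are among the 14651 tested genes with a length, whose median was 4998 bases. The part of length in the results was not tested.

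Over the 12 libraries, the Pearson correlation of log2 CPM was 0.87 between SLC5A3 and SLC6A6, 0.85 between SLC5A3 and NFAT5 and 0.53 between SLC6A6 and NFAT5. These are descriptions: the 12 points share 4 groups and a scaling, and are not independent. Among the 13528 genes whose mean normalized count reached 50, those with the pattern most like SLC5A3 were SLC44A1 (r = 0.969), BTBD7, HDAC4, WNT5A and ZNRF3 (r = 0.955). For SLC6A6 they were DNAJC5 (r = 0.975), TNIP3, ZHX3, COLEC12 and IL17RA (r = 0.957), and for NFAT5 they were SMG1 (r = 0.978), SLC30A7, ZBED6, TSC22D2 and EP300 (r = 0.965). The 3 lists of 5 have no gene in common, and none holds another of the 3 genes.

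The surroundings of the 3 genes were described with 41 further genes of inositol and taurine handling, tonicity response and cell volume, all of which are in the tables. Of these, 33 passed the filter on low counts in at least 1 test and 21 were called in at least 1 of the 5 tests, beside 24.3% of the 17785 genes tested in any of them. The transporters SLC5A11, SLC6A12 (betaine), SLC6A13 and SLC14A2 and the enzymes MIOX, CDO1, GADL1 and BAAT were under the filter throughout, each at or under 0.290 CPM in every library. CDO1 makes cysteine sulfinic acid, the first step of the classical way from cysteine to taurine. For GFP cells without against with Cyss, 0 listed genes were called higher and 3 lower of 33 tested by edgeR (13 had an unadjusted p under 0.05 in either direction, and DESeq2's Wald test also called 0 higher), against 1.57 and 0.533% of all genes tested. In NRF2 cells 4 were called higher and 5 lower of 32 tested, against 6.81 and 5.14%. For NRF2 against GFP cells it was 1 higher and 0 lower of 32 with Cyss (10 had an unadjusted p under 0.05 in either direction), against 1.36 and 0.201%. Without Cyss it was 9 higher and 0 lower of 32 (20 had an unadjusted p under 0.05), against 5.98 and 4.09%, and DESeq2 also called 0 lower in both. The median log2FC of the list was -0.10, 0.02, 0.07 and 0.15 in these comparisons, beside medians between -0.02 and 0.00 over all genes tested. Without NRF2 without Cyss replicate 1 the last comparison gave 9 higher and 1 lower. The list was chosen with earlier results of these data known, and the study listed SLC2A13 from these libraries. The counts beside the shares of all genes are therefore descriptions.

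**Figure D5:**
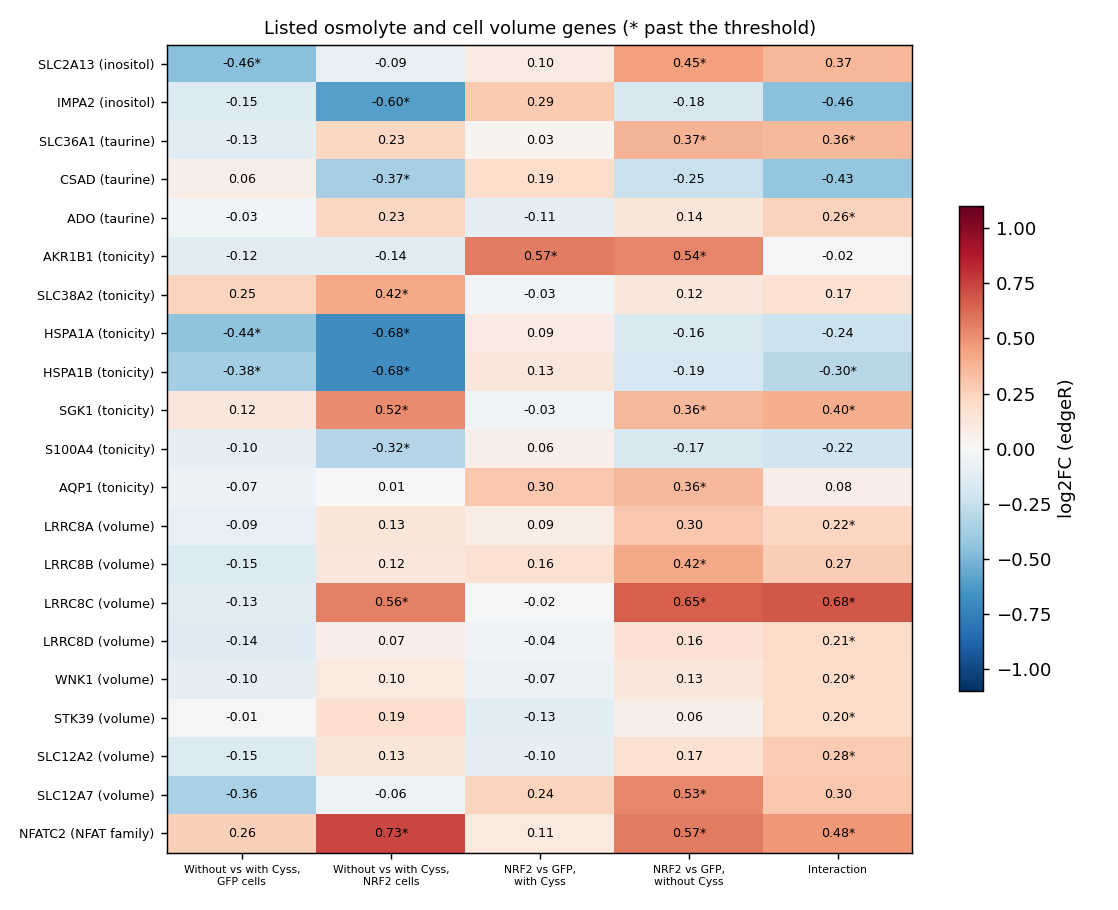
Fitted log2FC (colour and number) of the 21 listed genes called in at least 1 test, by comparison (columns), with the role of each gene in brackets and an asterisk where it passed the threshold of that column. In NRF2 against GFP cells without Cyss all 9 asterisks are on positive values, from 0.36 to 0.65.

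In the inositol group, SLC2A13, the proton-coupled myo-inositol transporter, followed SLC5A3 at a much lower level. It was at 5.35, 4.28 and 4.37 CPM in GFP cells with Cyss and at 3.28, 3.39 and 3.50 CPM without, with a log2FC of -0.46 (SE 0.115, edgeR adjusted p = 0.0478). For NRF2 against GFP cells without Cyss it was 0.45 (SE 0.11, edgeR adjusted p = 0.0140), and its interaction of 0.37 did not pass (edgeR adjusted p = 0.133). SLC2A13, like SLC5A3, was listed by the study from these libraries. IMPA2, an inositol monophosphatase that frees inositol from its phosphate, was called lower in NRF2 cells without Cyss, at -0.60 (SE 0.122, edgeR adjusted p = 0.00250), whereas IMPA1, ISYNA1 and CDIPT were called in no test.

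In the taurine group, SLC36A1, a proton-coupled carrier of small amino acids, was called higher without Cyss for NRF2 against GFP cells at 0.37 (SE 0.0684, edgeR adjusted p = 0.00337). CSAD, which decarboxylates cysteine sulfinic acid on the way to taurine, was called lower in NRF2 cells without Cyss at -0.37, with overlapping libraries (edgeR adjusted p = 0.0985). ADO, which oxidizes cysteamine to hypotaurine, passed only in the interaction, at 0.26 (edgeR adjusted p = 0.0159).

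The genes known to respond to tonicity, several of them through NFAT5, did not share a direction. AKR1B1, the aldose reductase that makes sorbitol, was higher in NRF2 than in GFP cells both with Cyss (log2FC 0.57, SE 0.0399, edgeR adjusted p = 1.59e-07) and without (0.54, SE 0.0588, edgeR adjusted p = 2.84e-04), and without against with Cyss it was at -0.12 in GFP cells and -0.14 in NRF2 cells, not called. SLC38A2, a carrier of neutral amino acids that hypertonicity is known to induce, was called higher without Cyss in NRF2 cells at 0.42, and SGK1, a kinase induced by cell shrinkage, at 0.52. In GFP cells SLC38A2 was also higher without Cyss, at 0.25 (edgeR adjusted p = 0.00550) and under the fold threshold. The interaction of SLC38A2, 0.17, did not pass (edgeR adjusted p = 0.111). SGK1 was at 0.12 in GFP cells (edgeR adjusted p = 0.437). HSPA1A and HSPA1B, which encode the same heat shock protein, were called lower without Cyss in GFP cells at -0.44 and -0.38 and in NRF2 cells at -0.68 for each. Their sequences are nearly identical, so the split of reads between them is uncertain. S100A4, a calcium-binding protein, was called lower in NRF2 cells without Cyss at -0.32, barely past the fold threshold, and this call was not checked here without replicate 1. AQP1, a water channel at 1.86 to 2.74 CPM, was called higher for NRF2 against GFP cells without Cyss at 0.36 (edgeR adjusted p = 0.0712). HSPA4L and PNPLA6 were called in no test.

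In the cell volume group, 3 of 11 genes tested were called in NRF2 against GFP cells without Cyss, all higher, beside 5.98% of all genes tested that were called higher. LRRC8C, a subunit of the volume-regulated anion channel, was at 51.9, 53.7 and 51.7 CPM in NRF2 cells without Cyss and at 30.0, 31.1 and 38.0 CPM in GFP cells, a log2FC of 0.65 (SE 0.0775, edgeR adjusted p = 3.70e-04). LRRC8B, another subunit, was at 0.42, and SLC12A7, a potassium-chloride cotransporter, at 0.53 with 1.40 to 2.43 CPM over all libraries. LRRC8C was also called higher without against with Cyss in NRF2 cells, at 0.56 (SE 0.0516, edgeR adjusted p = 1.74e-06), and no gene of the group was called by edgeR of 12 tested in GFP cells (5 had an unadjusted p under 0.05), where 2.1% of all genes tested were called. LRRC8E, OXSR1, SLC12A4 and WNK4 were called in no test, and WNK4 passed the filter in only 1. Among the relatives of NFAT5, the calcineurin-dependent factors of the NFAT family, NFATC2 was called higher without Cyss in NRF2 cells at 0.73, and NFATC1, NFATC3 and NFATC4 were called in no test.

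In the interaction, 10 listed genes passed higher and 1 lower of 32 tested, against 8.97 and 6.13% of all genes tested, and 6 of the 10 belonged to the cell volume group. Without NRF2 without Cyss replicate 1 these counts were 8 and 4, without NRF2 with Cyss replicate 3 there were 6 higher, and without GFP without Cyss replicate 2 they were 5 and 1.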

How the data were processed

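RNA-seq was analysed from 12 libraries of Hs 578T cells in 4 groups of 3. Per the paper's methods and the submitters' processing notes, the authors mapped reads to hg19 with TopHat2 2.1.0 and counted them on exons with HTSeq 0.11.2 without regard to strand. They deposited raw counts per gene symbol, not normalized; the annotation version is not given in the sources used here. From 55765 symbols, 523 rRNA genes were removed. Positions are from GENCODE 44 on GRCh37, lengths were matched for 82.9% of the genes tested, and the promoter sequence is from RefSeq.

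Counts were analysed in R 4.3.3 with edgeR 4.0.16. For each comparison of 6 libraries, a gene was kept where the mean of its normalized counts reached 10 in 1 of the groups, TMM factors were computed on the genes kept, and the quasi-likelihood test was applied with Benjamini-Hochberg adjustment over all genes kept. The interaction was fitted on 12 libraries. Replicates of a group differed by 2.22 to 13.0 in chi-square per degree of freedom, above sampling noise.

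Of the listed genes, 2 are not reported here and were left out of every count of the list. Named were the 3 genes, neighbours whose reads could be shared, NFE2L2, the 5 genes most like each of the 3, and listed genes called in at least 1 test, the others by name only. The members and lists were chosen with earlier results of these data known. Alternatives were DESeq2 1.42.0 size factors and Wald test, library size only, other filters and thresholds, all libraries in the fit, a replicate block, each library left out and, added after seeing the data, the share of reads outside genes as a covariate. The procedure was tested on simulated data. Plots used Python 3.11.15 with matplotlib 3.10.9.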

Additional observations from a re-analysis of the deposited data

Results flagged for a closer look

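The response to Cyss deprivation differed between NRF2 and GFP cells, by the edgeR interaction test with an adjusted p under 0.1, for the 3 genes and for 11 of 32 listed genes tested, where 15.1% of the 17674 genes tested passed. The differences in log2FC, NRF2 cells minus GFP cells, were 0.42 for SLC5A3, 0.17 for SLC6A6 and 0.48 for NFAT5. Among transporters and enzymes of taurine handling they were 0.36 for SLC36A1 and 0.26 for ADO. Among tonicity genes they were 0.40 for SGK1 and -0.30 for HSPA1B, whose reads cannot be cleanly separated from those of HSPA1A. In the cell volume group they were 0.22 for LRRC8A, 0.68 for LRRC8C and 0.21 for LRRC8D. Nearer the threshold were WNK1 at 0.20 (edgeR adjusted p = 0.0638), STK39 at 0.20 (edgeR adjusted p = 0.0930) and SLC12A2 at 0.28 (edgeR adjusted p = 0.0932). Values of single listed genes with a library left out are not given here. NFATC2, of the NFAT family, was at 0.48.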

How the results depend on the processing

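Of 252 values of the 3 genes under alternatives, 226 kept their direction and their side of the threshold. Under each alternative run, so did SLC5A3 and SLC6A6 in NRF2 against GFP cells without Cyss, and SLC5A3 and NFAT5 in the interaction. Of 656 values of the other genes named (MRPS6, and listed genes in the tests that called them), 587 kept both. Another 66 kept their direction but were no longer called, and 3 changed direction. The cause of the changes was not tested. With 3 libraries a group and log2FCs near the fold threshold of 0.32, 1 library decided several calls. No pairing by replicate number was assumed. Of the 12 correlations of same-numbered deviations 1 was over 0.1, which with 3 libraries a group cannot show that no pairing exists. With the number as a replicate block, SLC5A3 was at -0.35 in GFP cells and 0.45 in NRF2 against GFP cells without Cyss, no call of the 3 genes changed, and 4 listed genes passed lower in the interaction.

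Without a fold threshold SLC6A6 was called for loss of Cyss in GFP (-0.30) and NRF2 cells (-0.14) and in NRF2 against GFP cells with Cyss (0.25), and so was NFAT5 in NRF2 cells without Cyss (0.30). Listed genes called higher were then 1 in GFP cells, 9 in NRF2 cells, and for NRF2 against GFP cells 3 with Cyss and 16 without, where 2 were lower; of all genes tested 3.11, 15.2, 4.15 and 14% were then called higher, and 14.7% lower in the last. At an adjusted p under 0.05, SLC6A6 did not pass in the interaction (0.17), nor did it with library size only (0.11) or with no filter (0.17). Each of the last 2 settings gave 4 listed genes lower in the interaction, and DESeq2's Wald test gave 3 lower in NRF2 cells without Cyss. With reads outside genes as a covariate, for NRF2 against GFP cells SLC5A3 turned to -0.14 with Cyss, NFAT5 was at 0.23 without Cyss, and listed genes were 2 higher and 2 lower with Cyss and 1 lower without. With this covariate 5 listed genes passed lower in the interaction.

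Leaving out each library in turn, the ranges without against with Cyss were -0.38 to -0.30 for SLC5A3 and -0.32 to -0.27 for SLC6A6 in GFP cells, and -0.018 to 0.14 for SLC5A3 and 0.16 to 0.39 for NFAT5 in NRF2 cells. For NRF2 against GFP cells they were -0.078 to 0.031 for NFAT5 and -0.047 to 0.020 for MRPS6 with Cyss, and 0.29 to 0.52 for NFAT5 without Cyss. In the interaction they were 0.13 to 0.18 for SLC6A6, which was not called in 7 of the 12 cases, and -0.055 to 0.011 for MRPS6. Listed genes called ranged from 0 to 1 higher in GFP cells (1 without GFP without Cyss replicate 1), 3 to 5 lower in NRF2 cells, 1 to 2 higher with Cyss and 0 to 1 lower without Cyss for NRF2 against GFP cells, and 5 to 13 higher and 1 to 4 lower in the interaction.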
